A study of Mus musculus with 15 samples.

Results

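All 15 libraries of the series entered 1 comparison: 9 RNA-seq libraries of nerve-associated macrophages from mouse ear skin against 6 libraries of interstitial macrophages. Membership followed the sample titles, so that 15 of 15 libraries were used, 3 in each of 5 groups. The question was which genes set the nerve-associated cells apart in every one of their groups, whatever the injury or the origin of the cells, with no library of one side inside the range of the other.

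Every mouse carried, per the labels, creERT2 and gfp at the CX3CR1 gene and 1 R26-tdT allele, a red reporter switched on by Cre. All mice received tamoxifen, and the left ear was punched 3 weeks later. Skin was taken 10 days after the punch, and CD11b+ CD64+ Lin- cells were sorted. The groups were interstitial macrophages of the unpunched right ear (IM) and of the punched left ear (injIM), resident nerve-associated macrophages of the unpunched ear (sNAM) and of the punched ear (injsNAM), and recruited nerve-associated macrophages of the punched ear (recsNAM). By the stated gates, interstitial cells were GFP- and Tomato-, resident nerve-associated cells GFP+ and Tomato+, and recruited nerve-associated cells GFP+ and Tomato-. The gates therefore divide the cells by Cx3cr1-driven reporters, and position on a nerve was not itself sorted. The reporter field of the labels goes against these gates for injIM (GFP+/Tomato+) and for sNAM (GFP-/Tomato-), so the groups were taken from the titles, and the genotype field writes Cxcr1 where the protocol has CX3CR1. All samples came from 3 mice, so the 15 libraries must share animals, but the labels do not tie a library to a mouse. The p-values measure the spread between libraries and treat them as independent. The RNA of Cx3cr1, the gene at which creERT2 and gfp sit, was scarce everywhere: 0 to 23.5 normalized reads in interstitial, 0 to 66.9 in resident nerve-associated and 96.7 to 173 in recruited nerve-associated libraries. These levels separate recsNAM from both interstitial groups, but they do not separate sNAM or injsNAM from them. With creERT2 and gfp inserted at this gene in every mouse, its reads may not measure how active the gene was. The effect of the insertions on these reads was not tested.

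Macrophages of peripheral nerves lie along axon bundles in the skin, and interstitial macrophages lie in the dermis around vessels and collagen. Tissue macrophages take on programmes from their surroundings, and the series' title names transforming growth factor beta from sensory neurons as such a signal. This cytokine acts through type I and type II receptors and Smad proteins, and in the brain it supports the microglial programme.

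Levels are normalized reads: read counts that the submitters divided by 1 factor per library. A gene was called when limma's adjusted p lay under 0.05 for the mean of the 3 nerve-associated group means minus the mean of the 2 interstitial group means, on the scale log2(normalized reads + 100). Such a log2 difference understates the change of low genes. The 2 sides differed in how much of the transcriptome a library held. The 9 nerve-associated libraries had a read for 8581 to 15080 genes and the 6 interstitial libraries for 15202 to 16416 genes, so the sides did not overlap (exact permutation test, 2-sided p = 0.0004). At the depth of the shallowest library, 5.64 M reads (M, 10 to the power of 6), the expected numbers were 8581 to 13955 and 13879 to 14841 genes (exact permutation test, 2-sided p = 0.000799). Both permutation tests treat the 15 libraries as exchangeable, although these came from 3 mice and 5 groups. Depth itself was 20.4 to 23.8 M reads in interstitial, 20.4 to 23.4 M in recsNAM, 16.9 to 19.5 M in injsNAM and 5.64 to 18.6 M in sNAM libraries. Replicates correlated at 0.966 to 0.983 within the interstitial groups and at 0.934 to 0.955 within recsNAM. Within injsNAM they correlated at 0.762 to 0.772 and within sNAM at 0.644 to 0.776, on log2(normalized reads + 100) over tested genes. The part of this gap in each difference below was not tested. Summed pan-macrophage markers, among them Adgre1, Cd68 and Csf1r, were at 20449 to 30839 CPM in nerve-associated and 20501 to 23941 CPM in interstitial libraries, with Aif1 at 0 throughout. Cd14 gave 36.6% of that sum. Of its 9 tested members, 1 was called higher (Cd14) and 2 lower (Cd68 and Csf1r), so similar sums hide members that moved in opposite directions. Monocyte markers were at 394 to 1017 and 381 to 604 CPM, and endothelial and keratinocyte markers at no more than 55.9 and 168 CPM in any library. Libraries were made from 250 pg of RNA with 13 PCR cycles and without molecular identifiers.

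**Figure D1:**
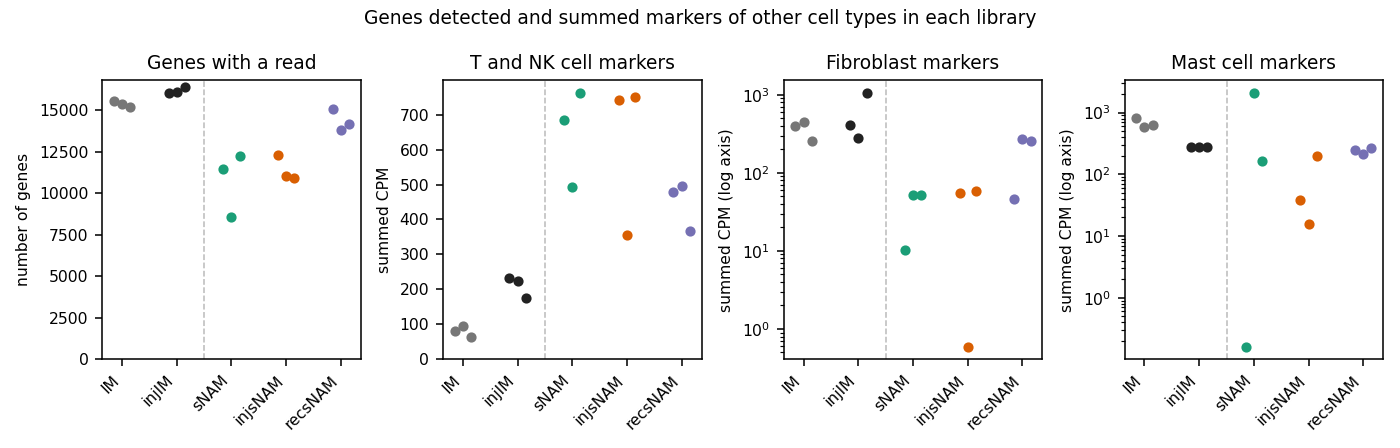
Number of genes with a read, and summed reads per M reads (CPM) of marker genes of T and NK cells, fibroblasts and mast cells, in each of the 15 libraries (1 point each; the dashed line parts interstitial from nerve-associated groups). Nerve-associated libraries held fewer genes, more T and NK cell marker reads and, in most libraries, fewer fibroblast marker reads.

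Of 8656 tested genes, 301 were called higher in the nerve-associated libraries (3.48%) and 636 lower (7.35%). The 9 nerve-associated libraries all lay above the 6 interstitial libraries for 78 genes (0.901%) and all below them for 126 genes (1.46%). Of these 204 genes, 194 were also called, 75 higher and 119 lower. The size of the excess of lower genes varied with the scale and the tool. The median log2 difference of all tested genes was -0.127. Tested against that median in place of 0, 419 genes were called higher and 380 lower, so that 52.4% of calls were higher in place of 32.1%. edgeR's quasi-likelihood test on the recovered reads called 188 genes higher and 241 lower (43.8% higher), DESeq2 49.2% and voom 46.9% of their calls higher. Of the 75 separated and called higher genes, edgeR called 70, and of the 119 lower genes it called 80. Leaving out sNAM replicate 1 lowered the number of called genes from 937 to 515, and leaving out sNAM replicate 3 lowered it to 512. With recsNAM as the only nerve-associated group, 494 genes were called higher and 691 lower.

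**Figure D2:**
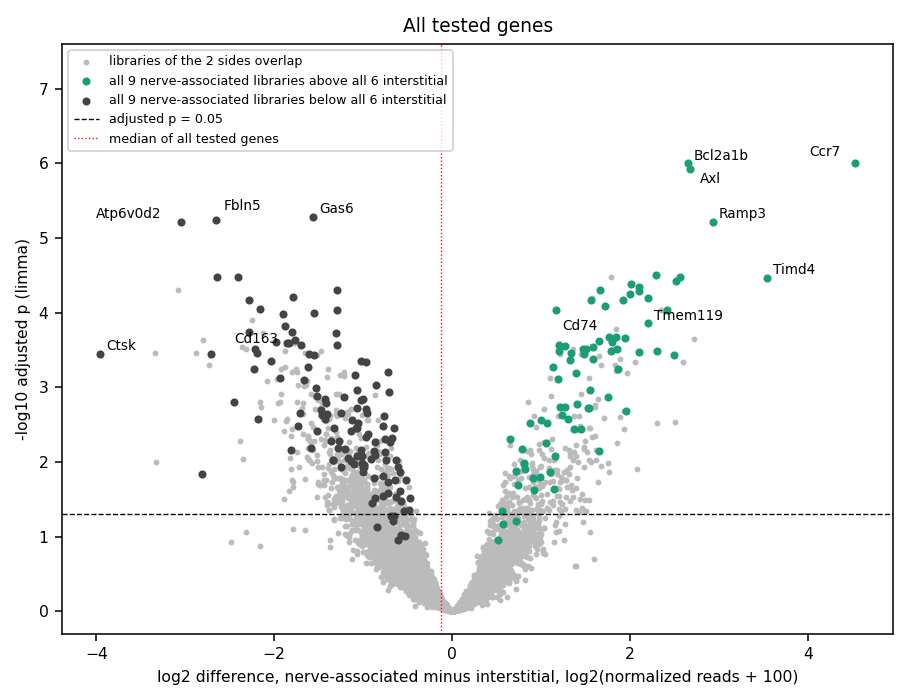
Log2 difference between nerve-associated and interstitial libraries against -log10 of limma's adjusted p for the 8656 tested genes; the dashed line is an adjusted p of 0.05 and the dotted line the median of all genes. Coloured points are the 78 genes with all 9 nerve-associated libraries above, and the 126 with all 9 below, the 6 interstitial libraries.

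Only 4 of the 8656 genes (0.0462%) were called in each of the 3 nerve-associated groups taken against the interstitial mean, and all 4 were higher: Ccr7, Bcl2a1b, Axl and Ramp3. Before adjustment, 94 higher and 147 lower genes had a p under 0.05 in all 3 groups by limma. With group weights, limma called no lower gene in all 3 groups, against 14 with a pooled spread and 1 with a replicate block. edgeR and voom called 1 lower gene each and DESeq2 25. Limma called 12 lower genes without sNAM, 5 without injsNAM and 3 without injIM. edgeR called 20 genes in every group, 19 of them higher, and these 20 held the same 4. The count rests on few libraries: it fell to 0 without sNAM replicate 1, without sNAM replicate 3, without injsNAM replicate 1, without injsNAM replicate 2 and without injsNAM replicate 3, and to 2 without sNAM replicate 2 or recsNAM replicate 1. It was also 0 with a pseudocount of 10. In the contrast of the 2 sides, each of the 4 genes kept its call under every alternative run.

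The promoter sequences of 3 of these genes, and of Gas6, the ligand of Axl, are shown because a Smad-bound element has been described for genes that transforming growth factor beta controls. Each runs from 250 bases before to 50 bases after the start of the gene (300 bases, 5′ to 3′ on the gene's strand, RefSeq, GRCm38.p6, the assembly that mm10 names). Capitals mark CAGAC, the Smad element, and GGAAGT, the core of the site of the myeloid factor PU.1, with their reverse complements GTCTG and ACTTCC.
Axl (chr7:25788684-25788983, minus strand): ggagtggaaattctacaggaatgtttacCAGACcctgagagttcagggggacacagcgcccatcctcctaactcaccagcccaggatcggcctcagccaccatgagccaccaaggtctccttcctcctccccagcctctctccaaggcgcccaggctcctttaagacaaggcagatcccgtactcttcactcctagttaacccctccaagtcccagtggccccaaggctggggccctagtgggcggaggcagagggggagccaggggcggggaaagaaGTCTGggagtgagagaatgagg
Ramp3 (chr11:6658283-6658582, plus strand): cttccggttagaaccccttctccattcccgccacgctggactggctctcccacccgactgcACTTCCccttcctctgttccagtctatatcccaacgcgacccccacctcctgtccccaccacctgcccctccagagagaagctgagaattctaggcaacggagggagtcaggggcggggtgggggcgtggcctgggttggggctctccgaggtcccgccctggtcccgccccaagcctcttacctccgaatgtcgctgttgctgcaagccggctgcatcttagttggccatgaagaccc
Bcl2a1b (chr9:89199023-89199322, plus strand): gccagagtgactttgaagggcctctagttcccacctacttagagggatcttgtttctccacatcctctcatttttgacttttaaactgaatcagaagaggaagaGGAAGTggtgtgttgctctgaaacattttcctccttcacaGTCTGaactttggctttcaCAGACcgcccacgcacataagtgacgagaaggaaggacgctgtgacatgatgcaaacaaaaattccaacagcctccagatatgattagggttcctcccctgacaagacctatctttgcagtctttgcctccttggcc
Gas6 (chr8:13494486-13494785, minus strand): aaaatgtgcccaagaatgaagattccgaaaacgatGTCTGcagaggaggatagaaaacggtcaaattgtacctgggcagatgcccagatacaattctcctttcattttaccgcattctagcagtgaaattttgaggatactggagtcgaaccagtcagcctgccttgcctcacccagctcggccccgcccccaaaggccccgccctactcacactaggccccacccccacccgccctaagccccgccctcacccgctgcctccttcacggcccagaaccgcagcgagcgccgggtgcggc
CAGAC occurred 2 times in the window of Axl, 2 times in that of Bcl2a1b and 1 time in that of Gas6, and these letters are not in the window of Ramp3. Over both strands, CAGAC was in 28 of the 56 promoters given for the 75 separated and called higher genes, in 53.8% of the 91 given for the 119 lower genes and in 46.6% of 7000 promoters of tested genes. GGAAGT was in 39.3%, 27.5% and 31.2% of the same sets. The AP-1 site TGAGTCA was in 1.79%, 7.69% and 3.69%. None of the 3 motifs contains another, and a match is a stretch of letters, not a bound site.

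Ccr7, the receptor that guides dendritic cells and lymphocytes to lymphatic vessels and lymph nodes, had the largest difference of all called genes (chromosome 11, 99144199 to 99155077). Its normalized reads were 591, 285 and 481 in IM, and 313, 80.9 and 248 in injIM. The sNAM libraries had 41050, 17585 and 21785, the injsNAM libraries 11463, 5110 and 4440, and the recsNAM libraries 6529, 2940 and 5339. The lowest nerve-associated library was 4.97-fold above the highest interstitial one, and the group means differed 38.8-fold. The log2 difference was 4.53 ± 0.37 (SE, adjusted p = 1e-06). Resident cells of the unpunched ear held the most.

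Axl encodes a receptor tyrosine kinase of the TAM family, which recognises dying cells through bridging proteins (chromosome 7, 25756500 to 25788924). Its normalized reads were 974, 1659 and 1044 in IM, and 957, 1134 and 967 in injIM. In sNAM it had 13763, 8768 and 5120, the injsNAM libraries 9099, 8564 and 4598, and the recsNAM libraries 7761, 7655 and 6182. The log2 difference was 2.67 ± 0.23 (SE, adjusted p = 1.2e-06). It was nearly the same in the 3 nerve-associated groups, at 2.84, 2.58 and 2.60 for sNAM, injsNAM and recsNAM, and the interstitial groups of the 2 ears overlapped.

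Ramp3 encodes an accessory protein that turns the calcitonin receptor-like receptor into a receptor for adrenomedullin (chromosome 11, 6658506 to 6677478). Its normalized reads were 350, 394 and 271 in IM, and 498, 296 and 698 in injIM. Levels in sNAM were 6494, 4748 and 7399, the injsNAM libraries 3943, 2235 and 5303, and the recsNAM libraries 1968, 1948 and 3191. The group means differed 9.90-fold, with a log2 difference of 2.93 ± 0.29 (SE, adjusted p = 6.04e-06). Ramp1, its relative that forms the receptor for the sensory neuropeptide CGRP, was also called higher, with 224 to 725 normalized reads against 45.3 to 242, so the sides overlapped. Its adjusted p was 0.0128, and 0.0599 without sNAM replicate 3. The receptor that both serve, Calcrl, ranged from 0 to 856 normalized reads in nerve-associated and from 309 to 498 in interstitial libraries (log2 difference -0.68 ± 0.44, adjusted p = 0.367).

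Bcl2a1b encodes a protein of the A1 family, which blocks the mitochondrial path of cell death (chromosome 9, 89199273 to 89207838). Its normalized reads were 429, 761 and 577 in IM, and 352, 320 and 276 in injIM. The sNAM libraries had 6111, 8809 and 6204, the injsNAM libraries 2423, 2638 and 2566, and the recsNAM libraries 1827, 1723 and 2100 (log2 difference 2.65 ± 0.22, adjusted p = 1e-06). The gene has near-identical copies on the same chromosome, among which reads can be split, so its own level is uncertain. Bcl2a1a and Bcl2a1d, looked up for this reason after the values of Bcl2a1b were seen, were separated in the same direction, with log2 differences of 1.64 and 2.10.

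**Figure D3:**
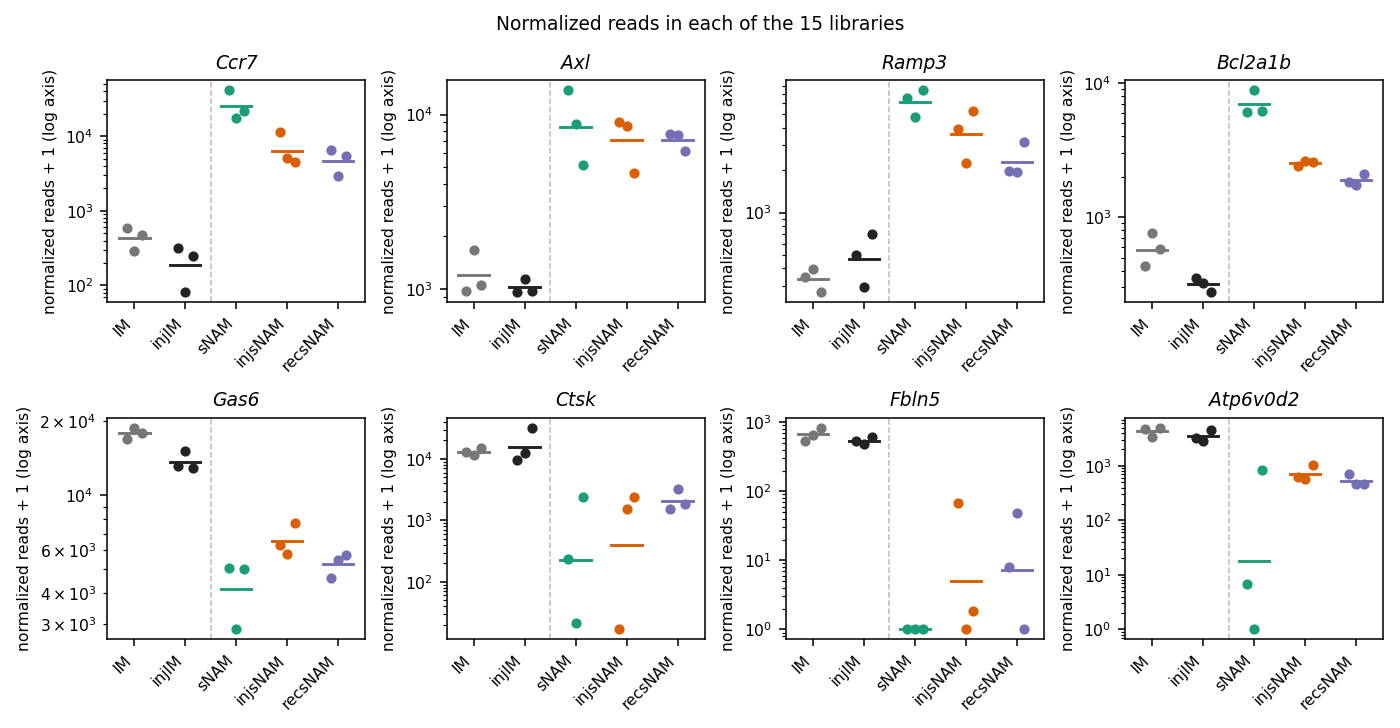
Normalized reads + 1 (log axis) of 8 genes in the 15 libraries; points are libraries, horizontal bars geometric means of 3 libraries, and the dashed line parts interstitial (IM, injIM) from nerve-associated groups (sNAM, injsNAM, recsNAM). In each panel all 9 nerve-associated points lie on one side of all 6 interstitial points.

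Receptors for growth factors, cytokines and chemokines were the list with the most higher calls: 10 of 25 tested members were higher and 1 lower (median log2 difference 0.51, against -0.127 for all genes). edgeR called 9 higher and 1 lower, and without sNAM replicate 2 the counts were 8 and 0. Among them were Ccr7, Il1r2, Flt3, Il7r, Il21r, Ccr1, Ifngr1, Csf2ra and Csf2rb, the last 2 being the chains of the GM-CSF receptor. Il1r2, a decoy receptor that binds interleukin 1 without signalling, lay between 713 and 6113 normalized reads in nerve-associated and between 84.6 and 510 in interstitial libraries (log2 difference 2.50 ± 0.39, adjusted p = 0.000372). Flt3, the receptor of a dendritic cell growth factor, lay between 157 and 3441 against 10.4 to 85.0 (log2 difference 2.42 ± 0.32, adjusted p = 9.2e-05). Its sNAM libraries held 1660 to 3441 normalized reads and its recsNAM libraries 157 to 474. With all its interstitial levels under 100, Flt3 passed the filter on low values through the nerve-associated libraries. The call of Flt3 therefore follows in part from that filter. Il7r, a chain of the interleukin 7 receptor, lay between 4393 and 9149 against 1045 to 3906 (log2 difference 1.56 ± 0.20, adjusted p = 6.79e-05). In the interstitial cells it was itself higher after the punch, with 2840 to 3906 against 1045 to 1543 normalized reads (adjusted p = 4.22e-06 by limma). The 1 lower member was Csf1r, the receptor that macrophages need to survive: 34142 to 59453 against 51770 to 79954 normalized reads (adjusted p = 0.0483). That call was lost when any of 13 of the 15 libraries was left out, the adjusted p reaching 0.215 without sNAM replicate 3.

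Some of these genes mark other cells too. Ccr7 and Flt3 also stand in the dendritic cell list, of which 9 of 14 members were tested and no other was called. Summed dendritic cell markers were at 2409 to 4305 CPM in sNAM, 1340 to 2156 in injsNAM, 1325 to 1752 in recsNAM, 1435 to 1565 in IM and 1168 to 1701 in injIM. Sirpa, which macrophages also express, gave 55.2% of that sum. The recsNAM sum overlapped the interstitial range. With Sirpa as its largest part, the sum cannot show how many dendritic cells a library held. T and NK cell markers summed to 355 to 763 CPM in nerve-associated and 62.8 to 234 CPM in interstitial libraries. Il7r gave 73.2% of that sum. Of the 12 members, 8 lay under the filter on low values, and the 4 tested were called higher. With recsNAM as the only nerve-associated group, 1 member passed the filter. The others passed it only with the sNAM and injsNAM libraries, so their calls follow in part from the filter. Cd3g, a chain of the T cell receptor complex, had 1025, 0 and 2829 normalized reads in sNAM, 1854, 122 and 2333 in injsNAM, 89.5, 21.1 and 15.4 in recsNAM and 10.5 to 34.2 in interstitial libraries. Cd3e was spread in the same way, and its adjusted p of 0.00555 became 0.055 without sNAM replicate 3. Klrk1, an activating receptor of NK and T cells, was separated at 125 to 2009 against 22.0 to 81.1 normalized reads (log2 difference 2.30 ± 0.35, adjusted p = 0.000321). Cd3g and Cd3e lay within or near the interstitial range in recsNAM, where Klrk1 had 125, 183 and 496. Cd2 was at 0 in every library. The part of T and NK cells or dendritic cells in these differences was not tested, and in bulk samples fewer cells of a type and less RNA per cell cannot be told apart.

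The receptors that recognise phosphatidylserine on dying cells, with their bridging ligands, had 6 of 15 tested members higher and 2 lower (median log2 difference 0.24). edgeR called 4 and 2, and without sNAM replicate 2 the counts were 5 and 2. The higher members were the receptors Axl, Timd4, Havcr1 and Havcr2, the integrin chain Itgb5 and the engulfment adaptor Elmo1, and the lower ones were Gas6 and Pros1, the 2 ligands of the TAM receptors. Of these, edgeR did not call Havcr1 (adjusted p = 0.99) or Elmo1 (0.0878). Timd4, which binds phosphatidylserine directly, had 203, 120 and 440 normalized reads in IM and 57.5, 86.6 and 0 in injIM. In sNAM it had 10899, 7924 and 12500, the injsNAM libraries 3991, 1646 and 647, and the recsNAM libraries 1234, 671 and 582 (log2 difference 3.54 ± 0.41, adjusted p = 3.47e-05). The sides did not overlap, and sNAM held the most. Gas6 had 16925, 18842 and 17878 normalized reads in IM and 13124, 15166 and 12932 in injIM (chromosome 8, 13465374 to 13494535). Levels in sNAM were 5075, 2853 and 5005, the injsNAM libraries 6302, 5777 and 7693, and the recsNAM libraries 4625, 5437 and 5735. Gas6 was lower by a fold of 2.93 in the group means, with a log2 difference of -1.56 ± 0.15 (SE, adjusted p = 5.17e-06). Mertk, another TAM receptor, which was named after its values were seen, ranged from 120 to 1386 against 554 to 1169 normalized reads and was not called (adjusted p = 0.50). Timd4 also stands in the perivascular and interstitial list, of which it was the only higher member.

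Antigen presentation and costimulation had 6 of 11 tested members higher and 0 lower (median log2 difference 0.59). Of the 21 members of the list, 10 lay under the filter on low values. edgeR called 3 higher, and so did limma without sNAM replicate 2. Cd74, the chaperone of class II molecules, had 193574 to 735649 normalized reads in nerve-associated and 71887 to 122882 in interstitial libraries, with no overlap (log2 difference 1.76 ± 0.25, adjusted p = 0.000214). The sNAM libraries held 368636 to 735649, above all 6 libraries of injsNAM and recsNAM. Ciita, the master regulator of class II genes, was separated at 200 to 1423 against 27.7 to 165 normalized reads (log2 difference 1.53 ± 0.29, adjusted p = 0.0019). Cd86 and Icosl, which costimulate T cells, and Pdcd1lg2, which restrains them, were called with log2 differences of 0.51, 1.13 and 1.17, and their libraries overlapped. edgeR called none of the 3 (adjusted p = 0.0671, 0.346 and 0.272). Pdcd1lg2 had a mean of 66.0 normalized reads in interstitial libraries and passed the filter through the nerve-associated ones. Its call by limma therefore follows in part from the filter. Cd83 was called (adjusted p = 0.0182), but not without sNAM replicate 1 (0.0826), sNAM replicate 3 (0.0691) or injsNAM replicate 1 (0.0511), and its difference was -0.11 without the sNAM and injsNAM groups. In all 15 libraries H2-Aa and H2-Eb1 are listed at 0, and H2-Ab1 reaches 0.78 at most, so the class II chains themselves were not measured by this table.

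The list of nerve-associated and microglia-like identity genes was not shifted as a whole: 2 of 13 tested members were higher, 1 lower, and the median log2 difference was -0.02. Tmem119, a surface protein used to mark microglia, had 309 to 1734 normalized reads against 24.2 to 298, so that the sides just failed to overlap. Its log2 difference was 2.20 ± 0.30 (SE, adjusted p = 0.000139), and it was itself higher in injIM, at 159 to 298, than in IM, at 24.2 to 78.2 (adjusted p = 0.00153). Adgrg1, an adhesion receptor of microglia, was lower, at 2.91 to 1788 against 1582 to 2246 normalized reads, and injsNAM replicate 1 alone reached the interstitial range (adjusted p = 0.000563, and 0.195 by edgeR). P2ry12 was not called (log2 difference -0.79, adjusted p = 0.0548), and Sall1 and Trem2 lay under the filter on low values.

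Of the transforming growth factor beta ligands, receptors, Smads and targets, 3 of 28 tested members were higher and 1 lower (median log2 difference -0.07). These calls made up 10.7% and 3.57% of the list, against 3.48% and 7.35% of all tested genes. Tgfb1, the ligand, ranged from 3925 to 5554 against 5088 to 7951 normalized reads and was not called (log2 difference -0.33 ± 0.19, adjusted p = 0.293). The type I receptor Tgfbr1 was not called either (0.78 ± 0.33, adjusted p = 0.145). The type II receptor Tgfbr2 was not called by limma (-0.66 ± 0.24, adjusted p = 0.0872), while edgeR called it lower (adjusted p = 0.0193). Pmepa1, a target that feeds back on Smad signalling, was separated, at 2466 to 4964 against 927 to 2162 normalized reads (log2 difference 1.21 ± 0.22, adjusted p = 0.00185). It was also higher in injIM than in IM (adjusted p = 0.0366). Itgb5 and Itgav, integrin chains that can bind the latent cytokine, were called with log2 differences of 1.19 and 0.77, Itgav not by edgeR (adjusted p = 0.055). Itgb5 had 776 to 2224 normalized reads in sNAM, within the range of 646 to 2885 in the interstitial libraries, and 4182 to 7703 in injsNAM and recsNAM. Tgfbr3, a coreceptor, was called lower (adjusted p = 0.0387), which was lost without any of 12 libraries, the adjusted p reaching 0.132 without sNAM replicate 3.

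Cytokines and chemokines split: 3 of 26 tested members were higher and 5 lower (median log2 difference 0.01), with 2 and 1 by edgeR. By limma 11.5% were higher and 19.2% lower, against 3.48% and 7.35% of all tested genes. With recsNAM as the only nerve-associated group, 2 of 24 were higher and 12 lower. Over all genes, that fit called 494 higher and 691 lower. Il1b lay between 51830 and 203269 normalized reads in nerve-associated libraries. It lay between 36842 and 67824 in IM and between 17374 and 20335 in injIM, so that it was called (log2 difference 1.45 ± 0.22, adjusted p = 0.000359) and IM overlapped the nerve-associated range. Ccl22, which draws regulatory T cells, was higher at 1.71 to 6908 against 17.0 to 324 normalized reads (adjusted p = 0.003). The lower members were Ccl2, Ccl7, Ccl8, Ccl12 and Cxcl13, of which edgeR called Ccl2 alone. Ccl2, the main attractant of monocytes, had 66142 to 85744 normalized reads in IM, 15759 to 21596 in injIM, 20580 to 44041 in sNAM, 9929 to 21515 in injsNAM and 3230 to 7010 in recsNAM (log2 difference -1.52 ± 0.24, adjusted p = 0.000372). IM lay above all other groups and recsNAM below them, while injIM, sNAM and injsNAM overlapped. Ccl8 fell by 1.68 on the log2 scale (adjusted p = 0.00226, and 0.0802 by edgeR).

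**Figure D4:**
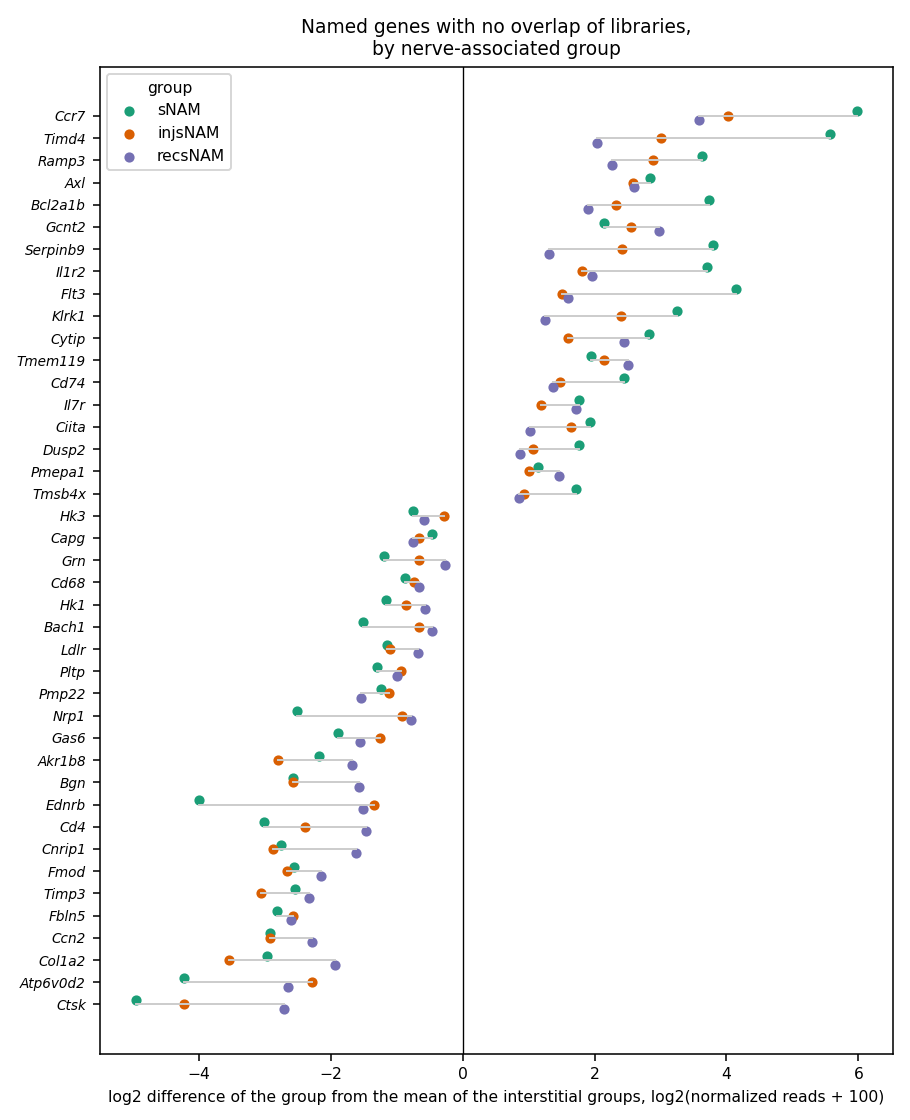
Log2 difference of each nerve-associated group from the mean of the interstitial groups, for the named genes that were called and had no overlap of libraries; 1 point per group. For most genes sNAM lies farthest from 0, while Axl, Fbln5 and Pmepa1 have the 3 groups close together.

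The largest set of lower genes was the perivascular and interstitial list, chosen from knowledge of such macrophages and with earlier results of these data known: 18 of 24 tested members were lower and 1 higher, with a median log2 difference of -1.60. The counts were 18 and 1 against the median of all genes, 10 and 1 by edgeR, 19 and 1 without sNAM replicate 2, and 21 and 1 with recsNAM as the only nerve-associated group. Over all genes, the last of these fits called 691 lower and 494 higher. Cd163, the scavenger receptor for haemoglobin, had 9870 to 18124 normalized reads in 5 interstitial libraries and 5595 in injIM replicate 3, against 1306 to 6901 in the nerve-associated ones (log2 difference -1.88 ± 0.29, adjusted p = 0.000321). Mrc1, the mannose receptor that takes up collagen fragments, had 8419 to 20804 against 19587 to 42855, the overlap again coming from injIM replicate 3 (log2 difference -1.21 ± 0.20, adjusted p = 0.000617). Ednrb, an endothelin receptor, was separated at 0 to 4205 against 7384 to 14764 (log2 difference -2.28 ± 0.32, adjusted p = 0.000183, and 0.145 by edgeR). Igf1, a growth factor, was lower with overlap, at 2590 to 7704 against 6458 to 8707 normalized reads. Folr2, Cd209f, Ccl24 and Selenop were further lower members, with log2 differences of -1.68, -2.80, -2.36 and -1.30. edgeR called Selenop (adjusted p = 0.000843) and not Folr2 (0.431), Cd209f (0.283) or Ccl24 (0.108). Cd4, which some macrophages also express, was separated at 111 to 2127 against 2287 to 6655 normalized reads (log2 difference -2.28 ± 0.29, adjusted p = 6.79e-05).

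Lysosomal, iron and haem genes had 7 of 28 tested members lower and 1 higher (median log2 difference -0.43), with 7 and 0 by edgeR. Limma thus called 25.0% lower and 3.57% higher, against 7.35% and 3.48% of all tested genes. Atp6v0d2, a subunit of the proton pump that is used by osteoclasts and macrophages, was among the most clearly separated (chromosome 4, 19876838 to 19922566). Its normalized reads were 4740, 3430 and 4991 in IM, and 3243, 2866 and 4458 in injIM. The sNAM libraries had 5.78, 0 and 827, the injsNAM libraries 617, 576 and 1029, and the recsNAM libraries 717, 455 and 457 (log2 difference -3.05 ± 0.30, adjusted p = 6.04e-06). Ctsk, a cathepsin that digests collagen, had the lowest log2 difference of the separated genes, -3.96 ± 0.57 (adjusted p = 0.000359; chromosome 3, 95499210 to 95509387). Its normalized reads were 13007, 11770 and 14886 in IM, and 9471, 12482 and 32186 in injIM. In sNAM it had 233, 20.4 and 2416, the injsNAM libraries 15.8, 1546 and 2366, and the recsNAM libraries 1537, 3239 and 1874. Tfrc, the transferrin receptor, was lower at 462 to 4608 against 3326 to 6709 normalized reads, the only overlap being sNAM replicate 2 (log2 difference -1.88, adjusted p = 0.000533). Slc40a1, the iron exporter, was called (log2 difference -1.80, adjusted p = 0.000631), but recsNAM, at 1651 to 2739, overlapped the interstitial range of 1789 to 3685, and edgeR gave 0.24. Cd68, a lysosomal glycoprotein of all macrophages, was lower at 21862 to 39648 against 39776 to 60172 normalized reads (log2 difference -0.75 ± 0.16, adjusted p = 0.00484).

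Complement and phagocytic receptor genes had 7 of 23 tested members lower (30.4%) and 2 higher (8.7%), with a median log2 difference of -0.24. Counts by edgeR were 4 and 2. Over all tested genes, limma called 7.35% lower and 3.48% higher. The higher ones were Clec7a, the receptor for fungal glucans, and Cd14, the coreceptor for bacterial endotoxin. Clec7a had 1048 to 6100 against 620 to 1229 normalized reads, only sNAM replicate 2 lying in the interstitial range (log2 difference 1.78 ± 0.20, adjusted p = 3.36e-05). Cd14 was called at an adjusted p of 0.0153, which became 0.0839 without sNAM replicate 1 and 0.0609 without sNAM replicate 3. Growth factors of tissue repair had 6 of 14 tested members lower (42.9%) and 0 higher (median log2 difference -0.69), with 3 and 0 by edgeR. The 6 were Igf1, Pdgfa, Pdgfc, Hbegf, Gdf15 and Grn. edgeR did not call Pdgfa, Pdgfc or Hbegf (adjusted p = 0.0883, 0.723 and 0.0983). Grn, a lysosomal growth factor precursor, was separated at 26385 to 65837 against 71222 to 80240 normalized reads (log2 difference -0.71 ± 0.12, adjusted p = 0.00117). Gdf15, a stress-induced member of the transforming growth factor beta family, was lower at 1016 to 5170 against 3191 to 11324, with overlap (adjusted p = 0.00511). In the lipid list, 5 of 21 tested members were lower (23.8%) and 1 higher (4.76%). Pltp, a phospholipid transfer protein, was separated at 8541 to 19807 against 24486 to 40540 normalized reads (log2 difference -1.08 ± 0.19, adjusted p = 0.00108). Gpnmb was lower, at 326 to 9343 against 5096 to 27451, and it was itself higher in injIM than in IM (adjusted p = 0.000145).

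Fbln5, an elastic fibre protein, had 542, 664 and 832 normalized reads in IM and 534, 490 and 610 in injIM (chromosome 12, 101746565 to 101819119). Levels in sNAM were 0, 0 and 0, the injsNAM libraries 66.0, 0 and 0.856, and the recsNAM libraries 7.01, 46.8 and 0 (log2 difference -2.66 ± 0.26, adjusted p = 5.66e-06). The gap between the lowest interstitial and the highest nerve-associated library was 7.42-fold. Ccn2, a matricellular protein and a classical target of transforming growth factor beta, had 0 to 79.6 against 261 to 1111 normalized reads (log2 difference -2.71 ± 0.42, adjusted p = 0.000353). Timp3, an inhibitor of matrix proteases, and the small proteoglycans Bgn and Fmod were separated in the same direction, with log2 differences of -2.64, -2.23 and -2.45. Clu, singled out after its values were seen, had 167 to 842 normalized reads in interstitial libraries, 2.93 in recsNAM replicate 3 and 0 in the other 8 nerve-associated libraries. Fibroblast markers summed to 256 to 1053 CPM in interstitial and 0.592 to 267 CPM in nerve-associated libraries. Of the 5 tested fibroblast markers, 3 were called lower: Dcn, Col1a2 and Lum, of which edgeR called Lum (adjusted p = 0.00828) and not Dcn (0.147) or Col1a2 (0.206). By limma, leaving out sNAM replicate 1 or sNAM replicate 3 took the adjusted p of Col1a2 from 0.0147 to 0.0888 or 0.0904, and that of Lum from 0.0216 to 0.0814 or 0.0904. The part of fibroblast RNA in the differences of Fbln5, Ccn2, Timp3, Bgn, Fmod, Clu and Col1a2, itself a fibroblast marker, was not tested. Mast cell markers summed to 274 to 805 CPM in interstitial libraries, 2082 CPM in sNAM replicate 2 and 0.161 to 266 CPM in the other 8 nerve-associated libraries. Cpa3, Cma1 and Mcpt4, proteases of mast cells, were called lower by limma (adjusted p = 0.00157, 0.00277 and 0.0045) and not by edgeR (0.0698, 0.552 and 0.654). Pmp22, the only called gene of the Schwann cell list and a gene that macrophages express, was separated as a lower gene, at 13556 to 29732 against 37700 to 60652 normalized reads.

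Among receptors for neuropeptides, transmitters and guidance cues, Ramp1 and Sema4d were higher and Ednrb, P2rx7 and Nrp1 lower, of 19 tested. That is 10.5% and 15.8%, against 3.48% and 7.35% of all tested genes. edgeR called 2 higher and 0 lower. Nrp1, a coreceptor for semaphorins and for vascular endothelial growth factor, had 108 to 5249 against 5699 to 8207 normalized reads (log2 difference -1.40 ± 0.27, adjusted p = 0.00226, and 0.222 by edgeR). Calca, which encodes the neuropeptide CGRP itself, had 164 to 1595 normalized reads in 4 libraries of sNAM and injsNAM. It was between 0 and 31.9 in the other 11 libraries, and no neuronal marker but Calca passed the filter on low values, Snap25 and Nefh being at 0 throughout. The call of Calca (adjusted p = 0.0411) was lost without any of 7 libraries, with adjusted p-values up to 0.141, and edgeR gave 0.358.

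**Figure D5:**
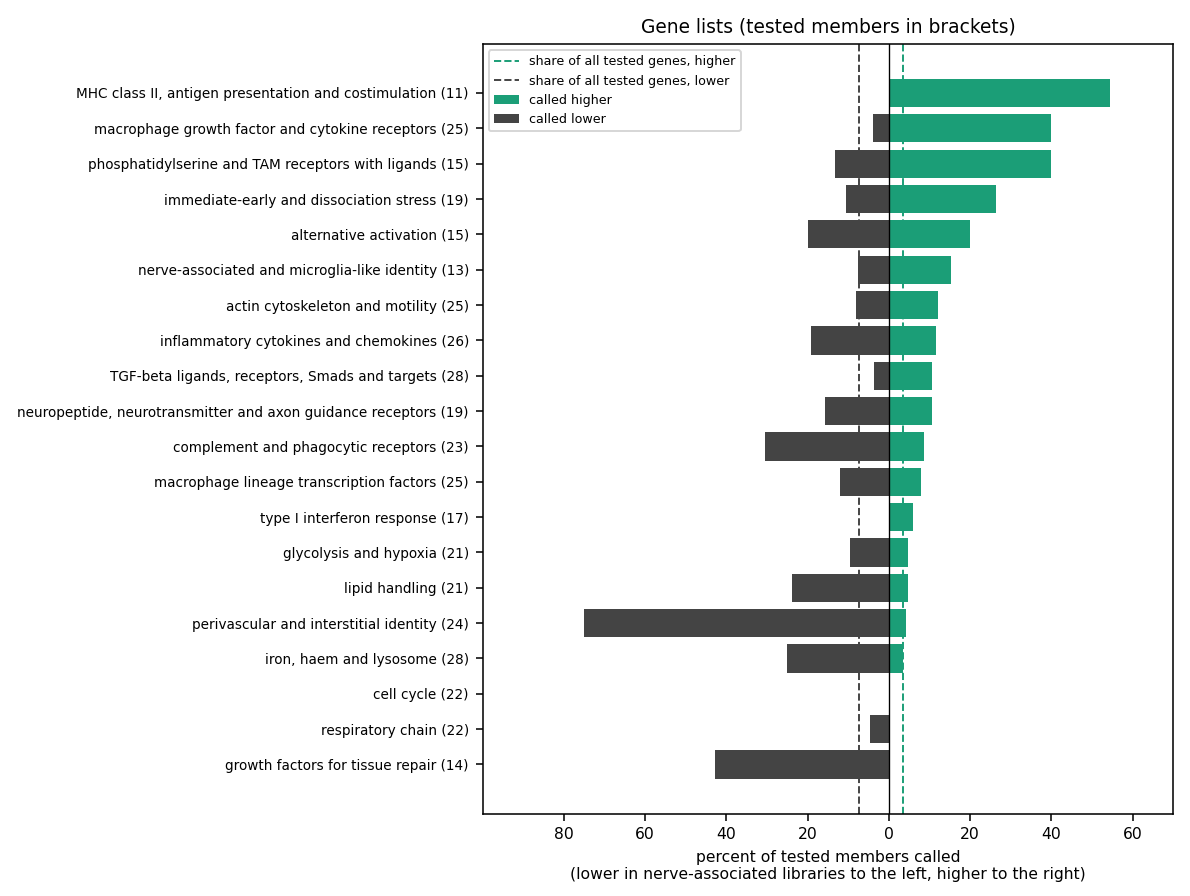
Percent of the tested members of each gene list called higher (right) and lower (left) in nerve-associated libraries; dashed lines are the shares of all tested genes, 3.48% and 7.35%. Among the plotted lists the share of higher calls was 54.5% for antigen presentation and 40.0% each for cytokine receptors and for phosphatidylserine receptors with their ligands, and the highest share of lower calls was 75.0%, for perivascular and interstitial identity.

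None of 22 tested cell cycle genes was called by limma, with 2 at an unadjusted p under 0.05, and edgeR called 1 lower. Mki67, a marker of dividing cells, ranged from 842 to 4128 against 843 to 2324 normalized reads (adjusted p = 0.955). The list of alternative activation had 3 of 15 tested members higher and 3 lower, glycolysis and hypoxia 1 of 21 higher and 2 lower, and actin and motility 3 of 25 higher and 2 lower. The respiratory chain had 1 of 22 tested members called (4.55%), under the share of lower calls over all genes. That call, Sdha lower (adjusted p = 0.0332), was lost without any of 5 libraries, with adjusted p-values up to 0.10. Of 25 lineage transcription factors, Id3 and Rel were higher and Klf2, Klf4 and Bach1 lower. edgeR called none of these 3 lower genes (adjusted p = 0.304, 0.269 and 0.12). The call of Rel (adjusted p = 0.0185) was lost without sNAM replicate 1 (0.0695) or sNAM replicate 3 (0.0744), and that of Bach1 (0.0165) without sNAM replicate 1 (0.0738). Spi1, which encodes PU.1, had a log2 difference of 0.04 (adjusted p = 0.927). Immediate-early genes, which rise when tissue is dissociated, had 5 of 19 tested members higher (26.3%) and 2 lower (10.5%), with 6 and 7 at an unadjusted p under 0.05. With recsNAM as the only nerve-associated group, 2 were called higher and 9 lower. Over all genes, that fit called 494 higher and 691 lower. Dusp2, a phosphatase of this list, was separated at 2164 to 4899 against 952 to 1712 normalized reads (adjusted p = 0.00235). Jun, a component of AP-1, was lower (adjusted p = 0.00701), but not without sNAM replicate 1 (0.0525) or sNAM replicate 3 (0.0609). Tmsb4x, which sequesters actin monomers, was separated at 61830 to 162529 against 41401 to 50951 normalized reads (log2 difference 1.17 ± 0.15, adjusted p = 9.2e-05).

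The separated and called genes were not held at 1 level across the nerve-associated groups. Among the 75 higher genes, sNAM lay farthest from the interstitial mean for 56, recsNAM for 12 and injsNAM for 7, with median log2 differences of 1.90 in sNAM, 1.35 in injsNAM and 1.25 in recsNAM. Among the 119 lower genes, sNAM lay farthest for 78, with medians of -1.51, -1.05 and -0.94. The sNAM group also had the widest spread and the fewest reads, and its part in this order was not tested. Of the lower genes, 86 had a read in every library and 32 had none in at least 1 sNAM library, which is 26.9% against 32.1% of all tested genes. In recsNAM, 6 of the 119 lower genes had no read in at least 1 library. Each single recsNAM library had no read for 0.370% to 0.751% of all tested genes. This share is per library and cannot be set against the count over 3 libraries. All 75 higher genes had a read in every nerve-associated library, which lying above all interstitial libraries requires. The distance between the sides was small for most: the lowest nerve-associated library was over 2-fold above the highest interstitial one for 6 of the 75 genes, and 11 of the 119 lower genes had such a gap.

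The punch changed the interstitial cells themselves, with 708 of 8656 genes called between injIM and IM (8.18%). Of the 194 separated and called genes, 33 were among them (17.0%): 10 of the higher genes were higher in injIM and 4 lower, while 18 of the lower genes were lower in injIM and 1 higher. Both comparisons use the interstitial libraries, so these counts are set side by side only. Between injsNAM and sNAM, 0 of 8656 genes were called by limma (0%), with 586 at an unadjusted p under 0.05. The difference between the sides in the punched ear minus that in the unpunched ear was called for 0 of 8656 genes (0%) by limma, with 569 at an unadjusted p under 0.05. With the spread of the sNAM and injsNAM libraries, a missing call does not show that the groups were alike.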

How the data were processed

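RNA-seq libraries of macrophages sorted from mouse ear skin were analysed, 15 in 5 groups of 3. The submitters' processing notes name STAR 2.7.2b, the build mm10, DESeq2 1.24.0 under R 3.6.1, cutadapt and bcl2fastq 2.18. The counter, annotation and strand setting were not given in the sources used here, so genes that overlap on opposite strands cannot be told apart. The deposited signal of a gene is its read count after the authors scaled each library by 1 factor. Dividing a library by its smallest value above 0 gave whole reads (100% of values, tolerance 0.01). The table has 42454 rows, of which 36134 matched a RefSeq symbol of GRCm38.p6, and coordinates are those of RefSeq.

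Genes with a mean of 100 or more normalized reads over the 15 libraries (8656) were tested with limma 3.58.1 (R 4.3.3), with trend, robust empirical Bayes, 1 mean and 1 array weight per group, on log2(normalized reads + 100). Weights were 3.43 (IM), 3.21 (injIM), 0.175 (sNAM), 0.311 (injsNAM) and 1.67 (recsNAM). P-values were adjusted by Benjamini-Hochberg over all tested genes. Because the filter uses the mean over all 15 libraries, a gene under 100 on 1 side passes it only through the other side. Calls of such genes, among them Flt3, Klrk1, Fbln5, Ccn2 and Clu, follow in part from the filter. A gene was called in every nerve-associated group when the largest of the 3 groups' p-values passed after adjustment, with 1 sign. On this scale groups with wide spread have lower mean logs at the same mean level. Counts of called genes, and those of most lists described, are therefore given with edgeR 4.0.16 too, and the count over all genes also with a fit against the median of all genes, chosen after seeing the data. DESeq2 1.42.0, voom, other pseudocounts, filters, scalings and contrasts, a replicate block and leaving out each library or group were the alternatives. Replicates were compared by chi-square, and each pair differed by more than sampling noise (34.88 per degree of freedom or more).

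Named genes were, from genes with 1 row and a standard symbol, the 12 higher and 12 lower called genes with no overlap of libraries and the largest differences, those called in every group, up to 3 called members per list, and a few set genes; others are said to be chosen after their values were seen or complete a list's count. The comparison, the lists and these choices were made with earlier results of these data known. A p from the lists alone was not computed. Results for a few genes are not reported here.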

Additional observations from a re-analysis of the deposited data

Results flagged for a closer look

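Within the 6 interstitial and the 9 nerve-associated libraries, 174 pairs of named gene and side were checked for a library far from the rest, and 13 pairs had one, where chance alone gives about 1 in 20. In the interstitial libraries these were Axl at 1659 normalized reads in IM replicate 2, Flt3 at 85.0 in injIM replicate 2, and Ctsk at 32186, Mki67 at 843 and Rel at 2156 in injIM replicate 3. In the nerve-associated libraries, sNAM replicate 2, the shallowest library, gave Ednrb at 0, Jun at 12977, Nrp1 at 108, Pltp at 8541 and Vwf at 908. The others were Mfge8 at 121 in injsNAM replicate 1, Fmod at 196 in recsNAM replicate 3 and Lum at 443 in recsNAM replicate 2. Axl and Flt3 stayed separated with these values included.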

How the results depend on the processing

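Against 937 called genes, voom called 588, edgeR 429 and limma without the injsNAM group 506 or without the recsNAM group 452; leaving out 1 library gave 512 to 1037. The replicate block gave 1028 calls. Replicate numbers are not stated to pair libraries: same-numbered libraries deviated together with r from -0.021 to 0.388 over 30 pairs (9 over 0.1), although 14 of 15 libraries correlated best with their own number. Against 4 genes called in every nerve-associated group, a pseudocount of 10 gave 0, the injury-balanced contrast 2, pooled spread 30, voom 9, edgeR 20, DESeq2 93 and the replicate block 7. Leaving out sNAM gave 21, injsNAM 15, IM 8 and injIM 9, and leaving out 1 library 0 to 7. Against 204 genes with no overlap, no filter gave 359, and fewer libraries give more by construction: 324 without IM, 502 without injIM, 440 without sNAM, 426 without injsNAM, 391 without recsNAM, 1484 without sNAM and injsNAM, and 211 to 278 without 1 library. Where no construction shows it, the cause was not tested.

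Of 79 called named genes, 36 kept their call under all alternatives and 60 without any 1 library. Only Cd83 reversed (-0.11 without sNAM and injsNAM). Of uncalled genes, Vwf (-0.02) reversed to 0.062 (pseudocount 300), 0.18 (edgeR), 0.23 (DESeq2), 0.11 (injury-balanced), 0.068 (without injsNAM), 0.15 (without recsNAM), 0.071 (without IM) and 0.11 (median gene), and ranged from -0.11 to 0.17 without 1 library. Mki67 (0.05) reversed to -0.0027 (TMM), -0.12 (voom), -0.28 (1 mean per side), -0.20 (without sNAM), -0.40 (without sNAM and injsNAM) and -0.12 (without injIM), and ranged from -0.15 to 0.16 without 1 library. Krt14 (-0.27) reversed to 0.36 without IM and ranged from -0.58 to 0.092 without 1 library. The shallow sNAM libraries limit every comparison of low genes.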
